A study of Mus musculus with 4 samples.

Results

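The genes described here encode acute phase proteins, plasma proteins whose output from the liver changes during inflammation. The 10 genes are Saa1, Saa2, Saa3, Hp, Hpx, Lcn2, Cp, Orm1, Fga and Fgb, taken by gene name from a table of 31828 genes. They were put together with the difference between the cultures already known, so their levels are given as a description, and nothing is read from a test of them. The cells were AML12, a hepatocyte line that grew out of the liver of a mouse with a transgene for human TGF-alpha, and their RNA was sequenced. They lay flat on dishes (2D) or were surrounded by Matrigel (3D), a gel of basement membrane proteins, and each culture gave 2 libraries (4 in total). The medium of both had 10% fetal calf serum, insulin, transferrin, selenite and 40 ng/mL dexamethasone, a synthetic glucocorticoid, and later 1 mM hydroxyurea, which blocks DNA replication and arrests cells at the G1/S boundary. The drug stayed on for 24 h in 2D but 36 h in 3D, so that culture, contact with Matrigel and time in the drug cannot be told apart in any library.

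The acute phase response is the reaction of hepatocytes to inflammatory cytokines, chiefly IL-6 and IL-1. IL-6 acts through its receptor and the kinase JAK1 on the transcription factor STAT3, while IL-1 and TNF act on NF-kB, and C/EBP factors bind many of the promoters concerned. Genes that rise in this response are called positive acute phase genes, and those that fall, such as the one for albumin, are called negative. Dexamethasone is a known enhancer of the response in cultured hepatocytes.

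All levels are in TPM, which divides by transcript length and adds up to the same sum in each library, so that depth is unknown and no detection limit can be given. Of the 10 genes, 6 had a mean of at least 1 TPM over the 4 libraries, the level required for testing, and 4 (Saa1, Saa2, Fga and Fgb) did not. An entry near 0 can be a failed estimate in this table. The gene mt-Atp6, used by every cell, was listed at 90.9 TPM in 2D replicate 1. In the other libraries it was listed at 0.0004, 0.035 and 0.041 TPM. No entry of mt-Atp6 was 0, so whether an entry of 0 can fail in this way was not tested. The 10 genes together made up 0.0193% and 0.019% of all TPM in the 2D libraries but 0.212% and 0.217% in those from 3D. On the log2(TPM + 1) scale used throughout, the difference between 3D and 2D was over 2 for 5 of them, 0.36 for Orm1 and within 0.2 of 0 for the remaining 4, with a median of 1.51 over the 10 genes and of -0.04 over the 14116 genes tested.

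**Figure D1:**
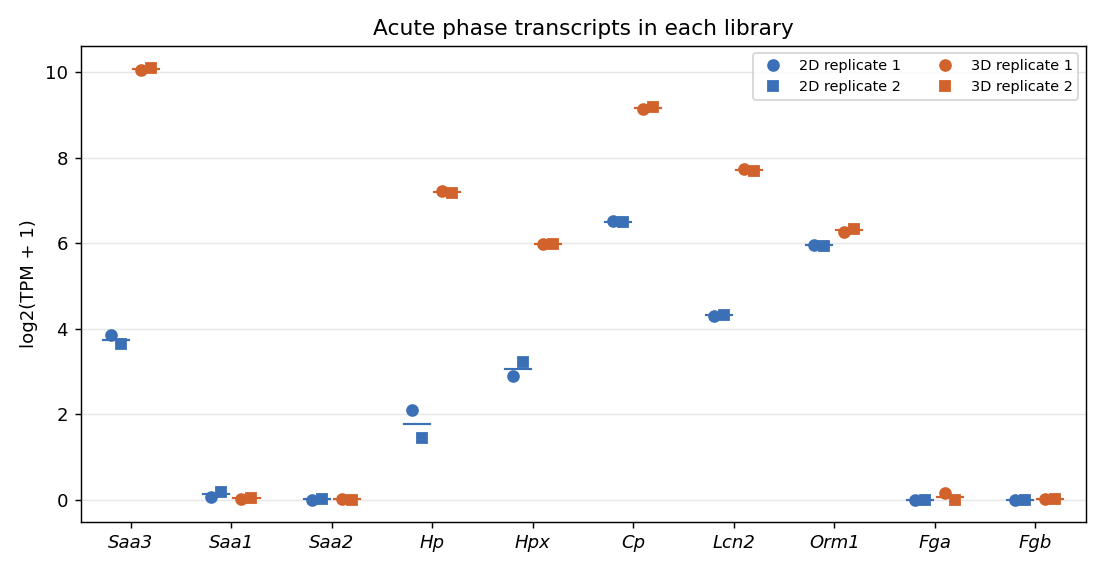
Level of each acute phase gene as log2(TPM + 1) in the 2D libraries (blue) and the 3D libraries (orange), with circles for replicate 1, squares for replicate 2 and short lines for the mean of each culture. Saa3, Hp, Hpx, Cp and Lcn2 lie well above their 2D levels in both 3D libraries, Orm1 differs by 0.36, and Saa1, Saa2, Fga and Fgb stay near 0 in every library.

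Serum amyloid A proteins are small apolipoproteins of high density lipoprotein, and Saa3 is the mouse form that is also made outside the liver. Saa3 (ENSMUSG00000040026) is a protein-coding gene on the minus strand of chromosome 7 (46711998 to 46715700, GRCm38). It stood at 13.4 and 11.6 TPM in the 2D libraries but at 1053 and 1100.2 TPM in those from 3D. The cultures did not overlap, and the ratio of their means was 86.4, with 78.8 to 95.1 over the pairs of 1 library from each culture. Its log2 difference of 6.33 was the 2nd highest of the 14116 tested genes, and it moved from position 8525 and 9017 in the order of abundance in 2D to 97 and 92 in 3D. The log2 difference between replicates was 0.19 in 2D and 0.06 in 3D.

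Saa1 and Saa2, the serum amyloid A genes known for the strongest induction in mouse liver, were nearly absent from the same libraries. Saa1 (ENSMUSG00000074115, chromosome 7, 46740497 to 46742980) was listed at 0.0515 and 0.138 TPM in 2D and at 0.0248 and 0.0381 TPM in 3D. For Saa2 (ENSMUSG00000057465, chromosome 7, 46751790 to 46754313) the entries were 0 and 0.0224 TPM in 2D and 0.0248 and 0 TPM in 3D. No value of Saa1, Saa2, Fga or Fgb was above 0.138 TPM in any library. Saa1 and Saa2 are near-identical copies, and 31.1% of the 50-base windows of Saa1 transcripts occur in Saa2 transcripts, so the split of reads between them is uncertain. Their sum, between 0.0381 and 0.161 TPM in all libraries, does not depend on that split. Only 0.346% of the windows of Saa3 occur in Saa1 and 0% in Saa2 or Saa4.

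The promoter windows of these genes, from 250 bases before to 50 after the RefSeq start, are printed here because genes of the same cluster stood at opposite ends of the range of levels. Windows are from RefSeq on GRCm38.p6, read 5′ to 3′ on the strand of the gene, and capitals mark matches to the C/EBP motif TTGCNNAA on either strand. The Saa3 window is chr7:46715627-46715926 (minus strand), that of Saa1 chr7:46742931-46743230 (minus strand) and that of Saa2 chr7:46751583-46751882 (plus strand).
Saa3: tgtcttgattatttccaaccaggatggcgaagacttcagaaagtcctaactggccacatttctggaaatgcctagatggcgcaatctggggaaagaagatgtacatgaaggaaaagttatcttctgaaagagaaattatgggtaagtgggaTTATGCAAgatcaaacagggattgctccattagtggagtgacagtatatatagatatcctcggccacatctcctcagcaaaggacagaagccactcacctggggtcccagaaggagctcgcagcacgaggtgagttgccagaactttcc
Saa1: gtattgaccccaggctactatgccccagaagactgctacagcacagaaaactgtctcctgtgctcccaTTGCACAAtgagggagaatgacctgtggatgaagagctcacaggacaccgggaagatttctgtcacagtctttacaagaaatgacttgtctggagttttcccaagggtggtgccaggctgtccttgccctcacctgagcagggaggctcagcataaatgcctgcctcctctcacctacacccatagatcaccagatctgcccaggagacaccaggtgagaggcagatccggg
Saa2: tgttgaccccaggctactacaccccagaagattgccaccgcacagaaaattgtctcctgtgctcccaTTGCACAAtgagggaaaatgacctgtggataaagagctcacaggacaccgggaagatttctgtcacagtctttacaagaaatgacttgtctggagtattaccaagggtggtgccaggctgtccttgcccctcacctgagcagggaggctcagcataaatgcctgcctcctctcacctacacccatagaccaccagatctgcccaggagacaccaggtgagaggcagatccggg
The windows of Saa1 and Saa2 were 95.3% identical over a global alignment, and those of Saa1 and Saa3 were 54.2% identical. The motif starts at -99 in Saa3, at -182 in Saa1 and at -183 in Saa2, counted in bases from the start of transcription, which is 0. It is therefore in the windows of both nearly absent genes and of the gene that was the most abundant of the set in 3D.

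Haptoglobin (Hp) and hemopexin (Hpx) are scavengers that bind free hemoglobin and free heme in plasma. Hp (ENSMUSG00000031722, chromosome 8, 109575128 to 109579172) was at 3.27 and 1.72 TPM in 2D and at 148 and 144 TPM in 3D. The ratio of means was 58.6, but it ranged from 44.1 to 86.3 over pairs of libraries, because the 2D replicates differed by 0.65 on the log2 scale. Both 3D libraries were far above both 2D libraries, and the log2 difference of 5.43 was the 4th highest of all tested genes. Hpx (ENSMUSG00000030895, chromosome 7, 105591613 to 105600137) was at 6.42 and 8.28 TPM in 2D and at 62.3 and 62.2 TPM in 3D. Its ratio of means was 8.47 (7.50 to 9.71 over pairs of libraries), a log2 difference of 2.93 at position 25 among the tested genes. Because Hp differed more than Hpx, the order of these scavengers turned round. The ratio of Hp to Hpx in TPM was 0.509 and 0.207 in 2D, and 2.38 and 2.32 in 3D.

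Ceruloplasmin (Cp) is a copper-carrying ferroxidase of plasma, and lipocalin 2 (Lcn2) is an antimicrobial protein that sequesters bacterial iron carriers. Cp (ENSMUSG00000003617, chromosome 3, 19957054 to 20009145) was the most abundant of the set in 2D, at 90.2 and 88.7 TPM, and reached 562 and 579 TPM in 3D. The ratio of means was 6.38 (6.23 to 6.52 over pairs of libraries), and the log2 difference was 2.66. Lcn2 (ENSMUSG00000026822, chromosome 2, 32384633 to 32388252) was at 18.7 and 19.2 TPM in 2D and at 214 and 204 TPM in 3D. It was 10.6 to 11.4 times higher over pairs of 1 library from each culture, and its log2 difference was 3.39. Both genes were tight between replicates, with log2 differences of 0.02 to 0.07 within a culture, and neither overlapped between cultures. By the size of the log2 difference, Lcn2 was at position 19 and Cp at position 44 of the tested genes.

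Orosomucoid 1 (Orm1), also called alpha-1-acid glycoprotein, binds drugs and lipids in plasma. Orm1 (ENSMUSG00000039196, chromosome 4, 63344560 to 63348163) was at 60.9 and 60.5 TPM in 2D and at 76.0 and 80.2 TPM in 3D. The libraries of the cultures did not overlap, but the ratio of means was only 1.29 (1.25 to 1.33 over pairs of libraries), and its log2 difference was at position 2827 of the tested genes. Orm1 shares 20.4% of its 50-base transcript windows with Orm2, so that part of its reads could have been assigned to either. Orm1 held 90.9% and 89.9% of the TPM of the 3 Orm genes in 2D and 91.7% and 92.9% in 3D, and the log2 difference of the sum was 0.33.

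Fga and Fgb encode the alpha and beta chains of fibrinogen, the clotting protein that assembles from 3 chains, each from its own gene. Fga (ENSMUSG00000028001, chromosome 3, 83026076 to 83033627) was listed at 0 in both 2D libraries, and at 0.117 and 0 TPM in 3D. Fgb (ENSMUSG00000033831, chromosome 3, 83040141 to 83049863) was listed at 0 in both 2D libraries and at 0.0157 and 0.0163 TPM in 3D. The gamma chain gene Fgg, which lies beside them and was not chosen for the set, was listed at 0, 0, 0 and 0.0357 TPM. The 3 chains summed to at most 0.133 TPM in any library, and no fold change is given for values listed at 0.

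In the fit across all genes, 6 of the 10 were higher in 3D at an adjusted p-value under 0.05 and 0 were lower, beside 23.4% of all tested genes higher and 27.1% lower by the same rule. All 6 genes that could be tested had both 3D libraries above both 2D libraries, and libraries were separated by culture for 77.5% of all tested genes. Over all tested genes, 0.836% had a log2 difference over 2. Since the genes were chosen on this contrast, these counts carry no weight of their own. The smallest differences among those over 2 were 2.66 for Cp and 2.93 for Hpx, and the next gene down was Orm1.

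The make-up of the acute phase transcripts differed between the cultures. The 6 genes with measurable levels had the order Cp, Orm1, Lcn2, Saa3, Hpx and Hp in both 2D libraries. In both 3D libraries the order was Saa3, Cp, Lcn2, Hp, Orm1 and Hpx. Within each culture no neighbours in this order overlapped between libraries. Saa3 made up 6.93% and 6.08% of the summed TPM of the 10 genes in 2D and 49.8% and 50.7% in 3D. Orm1 made up 31.6% and 31.8% in 2D and 3.59% and 3.70% in 3D. The share of Lcn2 was between 9.39% and 10.1% in all libraries, although its TPM was more than 10.6 times higher in 3D. The ratio of Cp to Orm1 was 1.48 and 1.47 in 2D and 7.40 and 7.21 in 3D.

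**Figure D2:**
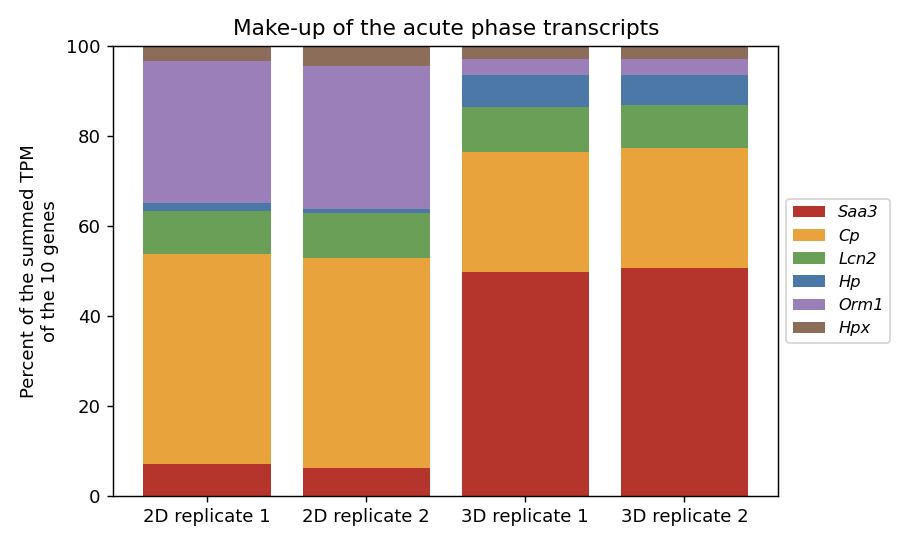
Share of each gene in the summed TPM of the 10 acute phase genes, in percent, for each library. Saa1, Saa2, Fga and Fgb are too low to be seen, Cp and Orm1 fill most of the 2D bars, and Saa3 fills 49.8% and 50.7% of the 3D bars.

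Several of the genes lie in clusters, and position was not used to choose them. Saa3, Saa4, the pseudogene Saa-ps, Saa1 and Saa2 follow each other within 42.3 kb of chromosome 7. Saa4, which encodes the constitutive form of serum amyloid A, was at 0.689 and 0.630 TPM in 2D and at 3.79 and 3.09 TPM in 3D. It reached the level for testing only through its 3D values, so no test is given, and its log2 difference of 1.42 was 0.58 with a pseudocount of 5 and 2.22 with a pseudocount of 0.1. The gene on the other side of Saa3, Saal1, is 1.32 kb away and was at 9.08 and 9.08 TPM in 2D and at 7.92 and 7.94 TPM in 3D (adjusted p 0.122, limma). Beyond Saa2 lies Hps5, which did not pass the test either (log2 difference 0.12, adjusted p 0.373, limma). Levels along the cluster thus ran from 1053 TPM to near 0 within a few genes in the 3D libraries.

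The fibrinogen genes span 42.1 kb of chromosome 3. Their nearest tested neighbours were Plrg1, at 55.6 and 55.0 TPM in 2D and 50.6 and 46.4 TPM in 3D (adjusted p 0.06, limma), and Ctso, which is 1070 kb from Fga. In the Orm cluster of chromosome 4, Orm2, named after its values were seen, was at 0.668 and 0.783 TPM in 2D against 2.24 and 2.13 TPM in 3D, and it too reached the level for testing only through 3D. In 2D the level of Orm3 was 5.73 ± 0.395 TPM, against 4.32 ± 0.408 TPM in 3D (n = 2 each, ± SD), which did not pass the test (adjusted p 0.0583, limma) except with a constant prior variance (adjusted p 0.043). Orm1 was thus the most abundant of the 3 Orm genes in every library.

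**Figure D3:**
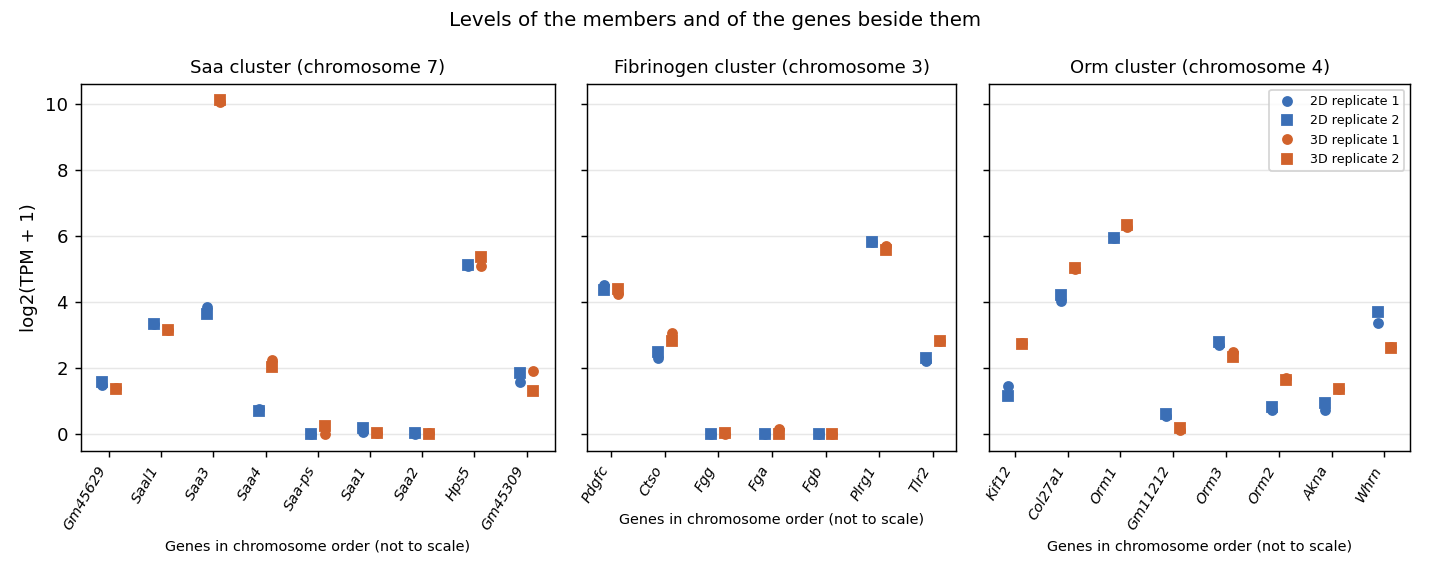
Levels as log2(TPM + 1) of the genes in the Saa, fibrinogen and Orm clusters and of the nearest tested genes beside them, in chromosome order, with blue for 2D, orange for 3D, circles for replicate 1 and squares for replicate 2. Saa3 stands apart from its neighbours in 3D, all fibrinogen genes lie near 0, and Orm1 is the highest gene of its cluster.

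The nearest tested gene on each side of every acute phase gene, and any that overlaps it, gave 16 distinct genes. Of these, 5 were higher and 1 was lower in 3D at an adjusted p-value under 0.05 and 10 did not pass. In all, 37.5% were called, beside 50.5% of all tested genes. Both the 5 and the 37.5% include Saa4, which reached the level for testing only through its 3D values. The genes that flank Hp, Txnl4b and Dhodh, had log2 differences of 0.08 and 0.06 (adjusted p 0.337 and 0.608, limma). Those that flank Lcn2, 1110008P14Rik and Ptges2, had 0.04 and 0.06 (adjusted p 0.452 and 0.732, limma). Hps3 overlaps the end of Cp on the opposite strand and rose from 17.2 ± 0.0421 to 25.6 ± 0.193 TPM (n = 2 each, ± SD, adjusted p 0.00259, limma). Saa4, described above, was another of the 5, and the others that rose were Apbb1 beside Hpx, Col27a1 beside Orm1 and the distant Ctso, by 0.61, 0.89 and 0.55 on the log2 scale (adjusted p 0.00685, 0.00207 and 0.0241, limma). Hltf beside Cp fell by 0.24 (adjusted p 0.0269, limma). Calls of Ctso were lost without 2D replicate 1 (adjusted p 0.0841) or 3D replicate 1 (adjusted p 0.106), and those of Hltf with any 1 library left out (adjusted p 0.0652 to 0.13). The median log2 difference of the 16 neighbours was 0.10.

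Promoter windows were found for 8 of the 10 genes, all but Hp and Orm1. The C/EBP motif TTGCNNAA, on either strand, was in 7 of these 8 windows and in 10.8% of the 32851 promoter windows of the reference. It was in 3 of the 4 windows of genes with measurable levels and in 4 of the 4 windows of genes near 0. The motif for STAT factors, TTCNNNGAA, was in 2 of the 8 windows, those of Fga and Fgb, and in 8.30% of all windows. The kB motif of NF-kB and the TATA motif TATAAA had no match in the 8 windows and were in 8.46% and 13.6% of all, and no match says only that these letters are not in these 300 bases. The letters were chosen after the windows had been seen, and a match is no evidence of binding. The Lcn2 window starts from a RefSeq start 513 bases inside the gene as listed in the table.

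The windows of Hpx (chr7:105600067-105600366, minus strand) and Fgb (chr3:83049814-83050113, minus strand) show this match in a gene that reached 62 TPM and in a gene near 0, with capitals for the C/EBP and STAT matches.
Hpx: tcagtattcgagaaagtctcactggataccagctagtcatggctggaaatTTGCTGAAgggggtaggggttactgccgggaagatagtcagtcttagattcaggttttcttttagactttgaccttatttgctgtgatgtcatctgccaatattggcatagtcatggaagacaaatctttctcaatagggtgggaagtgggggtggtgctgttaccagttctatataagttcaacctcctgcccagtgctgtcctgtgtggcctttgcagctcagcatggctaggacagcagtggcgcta
Fgb: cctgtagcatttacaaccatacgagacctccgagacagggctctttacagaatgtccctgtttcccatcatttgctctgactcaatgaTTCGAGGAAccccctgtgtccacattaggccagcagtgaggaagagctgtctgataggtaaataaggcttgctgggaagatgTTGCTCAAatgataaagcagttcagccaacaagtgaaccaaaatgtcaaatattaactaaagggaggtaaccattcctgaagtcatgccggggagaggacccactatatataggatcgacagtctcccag
In Hpx the C/EBP match starts at -200, and in Fgb it starts at -80, with the STAT match at -162.

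Other positive acute phase proteins were examined with a list of 25 genes, of which 22 were in the table and 11 reached the level for testing. Of these 11, 7 were higher and 1 was lower in 3D at an adjusted p-value under 0.05, beside 23.4% and 27.1% of all tested genes. Of the 7, Saa4 and Orm2 reached the level for testing only through 3D. The median log2 difference was 1.25 over the genes tested, 0.58 with a pseudocount of 5, and 0.10 over all 22 genes with no filter. The complement genes C3 and Cfb rose, C3 from 102 ± 2.80 to 564 ± 9.87 TPM and Cfb from 7.71 ± 1.17 to 115 ± 0.546 TPM (n = 2 each, ± SD, adjusted p 9.63e-05 and 0.000214, limma). Lbp, which hands bacterial lipopolysaccharide to its receptor, rose from 101 ± 2.67 to 429 ± 3.46 TPM, and Cd14, the receptor it serves, rose from 114 ± 0.805 to 271 ± 0.066 TPM (n = 2 each, ± SD, adjusted p 0.00017 and 0.000215, limma). Il1rn, which encodes the antagonist of the IL-1 receptor, rose by 1.27 on the log2 scale (adjusted p 0.00365, limma). The complement gene C4b was the 1 that fell, by 0.41 on the log2 scale (adjusted p 0.0281, limma), and lost this call without 2D replicate 2 and without either 3D replicate (adjusted p 0.0645 to 0.123).

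A further 11 genes of that list stayed below the level for testing, and all of them were under 1 TPM in every library. Crp and Apcs, which encode the pentraxins, were listed at no more than 0.125 TPM. Hamp, the gene for the iron hormone hepcidin, was at 0.485 and 0.406 TPM in 2D and at 0.157 and 0.303 TPM in 3D. Genes near 0 were thus found among the classic liver acute phase genes both inside and outside the set.

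Negative acute phase genes were on a list of 10, with 9 in the table and 5 tested. All 5 were higher in 3D at an adjusted p-value under 0.05, beside 23.4% of all tested genes. The median log2 difference of the 5 was 2.62, and it was 1.03 over all 9 genes with no filter. The genes for the iron carrier transferrin (Trf) and the thyroid hormone carrier transthyretin (Ttr) rose from 18.8 ± 0.655 to 229 ± 3.09 TPM and from 3.55 ± 0.621 to 84.5 ± 5.07 TPM (n = 2 each, ± SD, adjusted p 9.63e-05 and 0.000211, limma). The retinol carrier gene Rbp4 rose from 64.9 ± 3.13 to 334 ± 14.5 TPM (n = 2 each, ± SD, adjusted p 0.000194, limma). Albumin (Alb) rose from 1.01 ± 0.271 to 11.4 ± 1.91 TPM (n = 2 each, ± SD, adjusted p 0.000691, limma), and Apoa1 rose by 1.03 on the log2 scale (adjusted p 0.00337, limma). Genes of both the positive and the negative class were therefore higher in the 3D-cultured cells. In bulk RNA, fewer cells that express a gene and less of its RNA per cell cannot be told apart.

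Genes of IL-6 family signalling to STAT3 were put on a list of 20, of which 17 were tested. Of these, 9 were higher and 4 lower in 3D, with a median log2 difference of 0.25 (0.09 over all 20 genes with no filter), beside 23.4% and 27.1% of all tested genes. Il6 itself, named after its values were seen, rose from 5.12 ± 0.525 to 10.1 ± 1.16 TPM (n = 2 each, ± SD, adjusted p 0.00541, limma). Its receptor genes, of which Il6ra was also named after its values were seen, did not pass the test, with 23.1 ± 4.46 and 22.5 ± 2.27 TPM for Il6ra and 59.8 ± 13.6 and 54.9 ± 1.11 TPM for Il6st in 2D and 3D (n = 2 each, ± SD, adjusted p 0.886 and 0.617, limma). Without 2D replicate 2, Il6st passed as lower in 3D (log2 difference -0.33, adjusted p 0.0204). Lif, a cytokine of the same family, rose from 143 ± 2.61 to 273 ± 14.3 TPM (n = 2 each, ± SD, adjusted p 0.000526, limma), while its receptor gene Lifr was listed at no more than 0.025 TPM. The kinase gene Jak2 rose by 1.06 and Socs3, the feedback inhibitor induced by STAT3 and named after its values were seen, by 1.04 on the log2 scale (adjusted p 0.000494 and 0.000702, limma). The 4 genes that were lower were also named after their values were seen. Cish, another inhibitor of the family, fell from 15.6 ± 0.731 to 4.89 ± 0.215 TPM (n = 2 each, ± SD, adjusted p 0.00055, limma), and the kinase gene Pim1, the cytokine gene Il11 and its receptor gene Il11ra1 fell by 0.85, 1.04 and 0.28 on the log2 scale (adjusted p 0.00301, 0.00413 and 0.0328, limma). The call of Il11ra1 was lost with any 1 library left out (adjusted p 0.0583 to 0.131). Stat3 itself, named after its values were seen too, went from 44.8 ± 0.542 to 53.6 ± 1.73 TPM (n = 2 each, ± SD, adjusted p 0.0162, limma), and its adjusted p was 0.0921 without 3D replicate 1, 0.0538 without 3D replicate 2 and 0.053 without 2D replicate 1.

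Genes of IL-1, TNF and TLR signalling to NF-kB were put on a list of 26, of which 21 were tested. Of these, 11 were higher and 3 lower in 3D, with a median log2 difference of 0.25, and without 3D replicate 1 the number higher was 7. Over all tested genes, 23.4% were higher and 27.1% lower by the same rule. The subunit gene Relb rose from 128 ± 19.1 to 241 ± 32.9 TPM (n = 2 each, ± SD, adjusted p 0.00679, limma). Rela, which encodes the main activating subunit, and Nfkbia, which encodes the inhibitor that the pathway induces, had log2 differences of 0.10 and 0.01 (adjusted p 0.102 and 0.895, limma). Rela passed the threshold without 2D replicate 2 (adjusted p 0.0423). The precursor gene Nfkb2, the most abundant of the list, fell by 0.14 on the log2 scale (adjusted p 0.0321, limma), a call lost without 2D replicate 2 and without either 3D replicate (adjusted p 0.0704 to 0.182). The kinase gene Chuk fell by 0.40 and the inhibitor gene Nfkbib rose by 0.30 on the log2 scale (adjusted p 0.00969 and 0.00476, limma). The adaptor gene Myd88, the third that was lower and named after its values were seen, fell by 0.52 on the log2 scale (adjusted p 0.00197, limma). Others of the 11 that were higher, also named after their values were seen, included Nfkbiz, Tnip1, Tnfaip3 and Nfkbie. They rose by 0.71, 0.52, 0.41 and 0.31 on the log2 scale (adjusted p 0.00253, 0.00336, 0.00373 and 0.00798, limma). The receptor genes Tnfrsf1a and Tlr2 rose by 0.76 and 0.57 (adjusted p 0.00084 and 0.00926, limma). The genes of the ligands were low, with Il1a and Il1b at no more than 0.301 TPM and Tnf, named after its values were seen, at 0.0769 and 0.0366 TPM in 2D and 1.10 and 1.51 TPM in 3D.

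Transcription factors of acute phase and liver promoters were put on a list of 15, of which 12 were tested. Of these 12, 8 were higher and 2 lower in 3D, beside 23.4% and 27.1% of all tested genes. The median log2 difference of the list was 0.46. Hnf4a, a master regulator of hepatocyte genes, rose from 57.1 ± 0.663 to 160 ± 5.78 TPM (n = 2 each, ± SD, adjusted p 0.000241, limma). Cebpb, the C/EBP factor best known from the acute phase response, was the most abundant of the list and went from 548 ± 18.2 to 644 ± 37.1 TPM (n = 2 each, ± SD, adjusted p 0.0236, limma). That call was lost without 2D replicate 2 (adjusted p 0.0872) and without 3D replicate 2 (adjusted p 0.12). Cebpd, another inducible C/EBP factor and named after its values were seen, was at 1.53 ± 0.158 and 1.76 ± 0.123 TPM (n = 2 each, ± SD, adjusted p 0.441, limma). The factors that were lower were Nr1h4, which encodes the bile acid receptor, by 0.30 and Atf3, a stress-induced factor, by 0.50 on the log2 scale (adjusted p 0.00474 and 0.0337, limma), and Atf3 lost its call without 2D replicate 1, 2D replicate 2 or 3D replicate 1 (adjusted p 0.0591 to 0.161).

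Because dexamethasone was in both media, the glucocorticoid receptor and its known targets were listed as well. Of 12 genes 11 were tested, and 5 were higher and 1 was lower in 3D, beside 23.4% and 27.1% of all tested genes. The median log2 difference of the list was 0.20, which was 0.02 without 3D replicate 1 and 0.11 with no filter. Leaving out 3D replicate 1 or 3D replicate 2 gave 2 and 3 genes higher, and 3 genes were lower without 2D replicate 1. Fkbp5, a standard reporter of the receptor, was at 127 ± 2.87 and 150 ± 1.02 TPM (SD, n = 2 each, log2 difference 0.24, adjusted p 0.00928, limma), and this call was lost without 3D replicate 1 (adjusted p 0.0661) and without 3D replicate 2 (adjusted p 0.0579). Tsc22d3, another direct target, had a log2 difference of -0.26 (adjusted p 0.158, limma) and passed as lower without 2D replicate 1 (adjusted p 0.0319). Dusp1 fell by 0.34 on the log2 scale (adjusted p 0.00252, limma). Klf9 and Ddit4 rose by 0.65 and 0.21 on the log2 scale (adjusted p 0.000682 and 0.00938, limma). Over the alternative fits Klf9 ranged from 0.63 to 0.69 and Ddit4 from 0.19 to 0.24, and Ddit4 did not keep its call in all of them. Sgk1, a kinase gene of salt transport, had 80.1 and 83.3 TPM in 2D and 199 and 202 TPM in 3D, the largest log2 difference of the list at 1.28 (adjusted p 0.000241, limma).

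Proteins that bind or process the cargo of the acute phase proteins were on a list of 18 genes, of which 12 were tested. Of these, 7 were higher and 1 was lower in 3D, beside 23.4% and 27.1% of all tested genes. Among the 7, Lrp2, named after its values were seen, reached the level for testing only through its 3D values. It was at 0.477 and 0.527 TPM in 2D and at 1.67 and 1.73 TPM in 3D. The median log2 difference of the list was 0.39, which was 0.26 without 2D replicate 1 and 0.18 over all 18 genes with no filter. Without 3D replicate 1 and without 3D replicate 2 the numbers higher were 4 and 3, and with any 1 library left out none was lower. The gene that was lower, Blvra, which encodes an enzyme of heme breakdown, fell by 0.23 on the log2 scale (adjusted p 0.0459, limma), and its adjusted p with 1 library left out was 0.0665 to 0.19. The ferritin heavy chain gene Fth1, for iron storage, rose from 7174 ± 111 to 15935 ± 76.3 TPM (n = 2 each, ± SD, adjusted p 0.000192, limma). Hmox1, whose product breaks down heme, rose from 272 ± 8.68 to 399 ± 4.19 TPM (n = 2 each, ± SD, adjusted p 0.000913, limma). The transferrin receptor gene Tfrc rose by 0.44 on the log2 scale (adjusted p 0.00352, limma). Cd163, the macrophage receptor for haptoglobin bound to hemoglobin, was listed at 0 in 2D and at 0.0683 and 0.042 TPM in 3D, and Slc22a17, a receptor for lipocalin 2, was at no more than 0.460 TPM in any library.

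**Figure D4:**
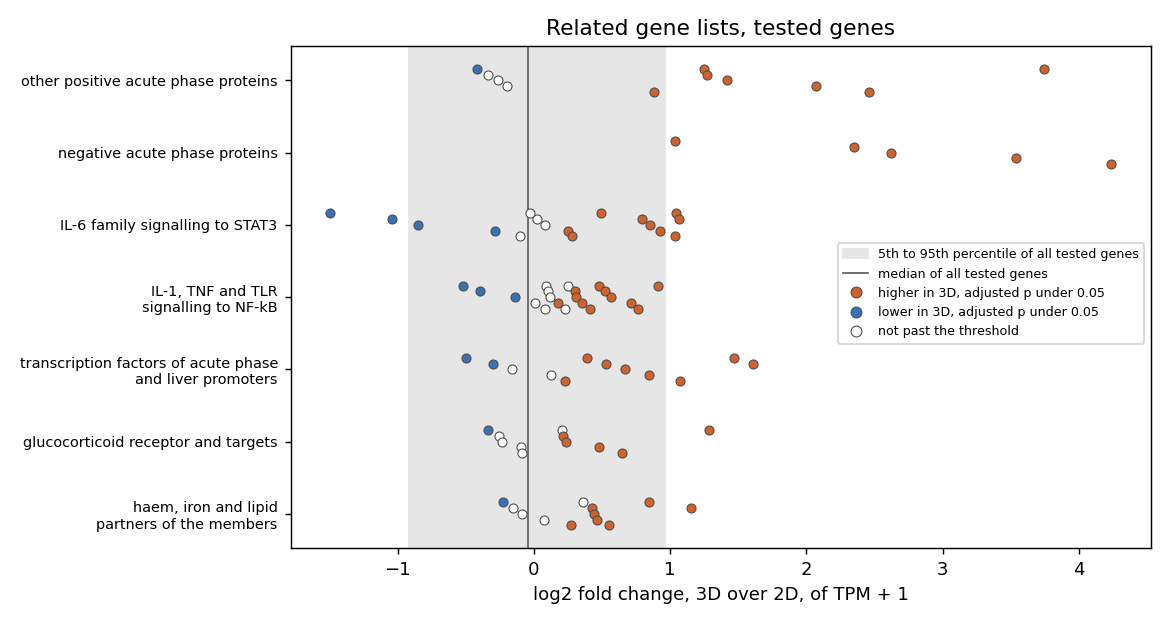
Log2 fold change (3D over 2D, of TPM + 1) of every tested gene in the 7 related lists, with orange for higher and blue for lower in 3D at an adjusted p-value under 0.05 and white for the rest. The grey band runs from the 5th to the 95th percentile of all tested genes (-0.92 to 0.96) and the line marks their median of -0.04, and most of the signalling and glucocorticoid genes lie within the band while the negative acute phase genes lie above it.

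The genes most like Saa3 over the 4 libraries, by Euclidean distance in log2(TPM + 1), were Ms4a4b, Trf and Gsta4, at distances of 3.01, 3.25 and 3.66. None was close, since Ms4a4b went from 12.0 ± 1.74 to 246 ± 7.23 TPM (n = 2 each, ± SD). The Ms4a genes are of a leukocyte type, and Ms4a4b was not among the leukocyte markers listed below.

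The label of the cells was compared with marker genes of liver cell types. Of 12 hepatocyte markers, 8 were tested. Of these 8, 6 were higher and 2 lower in 3D at an adjusted p-value under 0.05, beside 23.4% and 27.1% of all tested genes. The median log2 difference of the 8 markers was 1.40. Those that were higher were Trf, Ttr, Hnf4a, Apoa1 and Alb, all described above, and the lipoprotein gene Apob, which rose from 34.5 ± 1.29 to 88.0 ± 1.89 TPM (n = 2 each, ± SD, adjusted p 0.000317, limma). Among the others, Ahsg and Fgg were listed at no more than 0.0357 TPM, and Cps1 was at no more than 0.261 TPM. Krt8 and Krt18, the markers that were lower, are keratins of hepatocytes and other simple epithelia and were among the abundant genes, and Krt18 had 6207 ± 112 TPM in 2D, against 3297 ± 31.2 TPM in 3D (n = 2 each, ± SD). Of the 6 bile duct cell markers 4 were tested, and 2 were higher and 2 lower in 3D, beside the same shares of all tested genes. The remaining markers, Epcam and Cftr, were at no more than 0.0298 and 0.384 TPM in any library. The keratin genes Krt19 and Krt7 fell, Krt19 from 1687 ± 57.0 to 1200 ± 37.0 TPM, while Spp1, which encodes osteopontin, rose from 152 ± 19.8 to 775 ± 15.1 TPM (n = 2 each, ± SD, adjusted p 0.00138 for Krt19 and 0.000317 for Spp1, limma). The transcription factor gene Sox9 rose from 15.8 ± 0.853 to 24.8 ± 0.789 TPM (n = 2 each, ± SD, adjusted p 0.00317, limma).

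Saa3, Lcn2 and Cd14 are also expressed by leukocytes, whose markers were therefore listed. Of the 9 macrophage and Kupffer cell markers in the table, 5 were under 1 TPM in every library, and Ptprc, Adgre1, Csf1r and Clec4f reached at most 0.534 TPM. Cd68 was at 19.0 and 18.3 TPM in 2D and at 25.5 and 21.4 TPM in 3D (adjusted p 0.0576, limma). Lyz2 was at 1.34 and 1.67 TPM in 2D and at 0.771 and 1.60 TPM in 3D (adjusted p 0.459, limma). Marco, below the level for testing, was at 0.230 and 0.136 TPM in 2D and at 1.17 and 0.704 TPM in 3D. The summed level of the 9 markers was 134 to 135 TPM in 2D and 296 to 300 TPM in 3D, of which Cd14 was 113 and 114 TPM in 2D and 271 and 271 TPM in 3D. The 6 neutrophil markers summed to 3.00 to 3.62 TPM in 2D and 4.23 to 5.36 TPM in 3D, most of it S100a8, and Mpo and Csf3r were at no more than 0.197 TPM. The 6 endothelial markers summed to at most 2.22 TPM and the 6 stellate cell and fibroblast markers to 35.0 to 37.6 TPM in 2D and 18.8 to 19.9 TPM in 3D, nearly all of it Des. The part of such cells in the differences of the acute phase genes was not tested.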

How the data were processed

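RNA-seq libraries of AML12 cells were prepared with a stranded mRNA kit, 2 per culture, grouped from the labels. Per the labels and methods, Trimmomatic 0.36 and cutadapt 1.8.3 were used for trimming, HISAT2 2.0.5 for strand-aware alignment to GRCm38, and StringTie 1.3.4 with the genes of Ensembl release 93 for TPM. The authors deposited 1 TPM column for each library. The authors' fold changes and p-values from DESeq2 in the same table were not used. Positions of the 10 genes matched GENCODE release M21.

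The whole table was fitted with limma 3.58.1 in R 4.3.3 on log2(TPM + 1), for 14116 genes with a mean of at least 1 TPM, with culture as the only factor, trended robust variance, two-sided tests and Benjamini-Hochberg adjustment. At an adjusted p-value under 0.05 there were 7122 genes, and 8133 when unadjusted. An exact permutation test of 2 against 2 cannot go below 0.333. Nothing says that replicates came from separate cultures, so p-values measure the spread between these libraries, which may be technical. The fit was tested on simulated data, and 13 alternatives changed the pseudocount, filter, scaling, variance model, replicate block or libraries used.

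The members and lists were chosen with earlier results of these data known. All members, up to 6 genes per list by highest mean TPM, all neighbours and the 3 genes most like Saa3 could be named, and other names are marked where they occur, except genes named only as low. Serpina1c, Serpina1d, Serpina1e, Serpina6 and some markers were not analysed here. Promoter windows are RefSeq's (GRCm38.p6), aligned with Biopython 1.88. Figures were drawn with matplotlib 3.10.9.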

Additional observations from a re-analysis of the deposited data

How the results depend on the processing

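The levels of the 6 measurable acute phase genes kept their direction under all 13 alternative fits (pseudocounts of 0.1 and 5, no filter, a mean TPM of at least 5, median centring, quantile normalization, a rescaling that drops the 20 highest and all mitochondrial genes, a replicate block, a constant prior variance and each library left out), a direction that their choice had fixed. Their log2 differences ranged from 5.95 to 6.42 for Saa3, 4.34 to 5.89 for Hp, 2.45 to 3.09 for Hpx, 3.16 to 3.45 for Lcn2, 2.61 to 2.69 for Cp and 0.32 to 0.40 for Orm1, and 6 of these 78 values moved by more than the replicate spread, all with another pseudocount, which shrinks or widens low values by construction. The negative acute phase genes called higher stayed at 5 in these fits.

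The numbers called lower in the lists were small and moved most. For other positive acute phase proteins the number was 3 with a constant prior variance and 0 with the replicate block, for transcription factors 1 with no filter, constant prior variance, the rescaling or the replicate block, for haem and iron partners 0 under these same settings and with median centring or quantile normalization, for neighbours 2 with a constant prior variance and 0 with no filter or the replicate block, and for glucocorticoid genes 2 with the replicate block. The same-numbered libraries did not deviate together (correlation -0.0549). With 2 libraries per culture, this cannot tell whether they were grown or prepared as pairs. With the replicate block 6248 genes were called.

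With each library left out, where the lone library is assumed to vary like the others, 4707 to 5945 genes were called, of them 2094 to 2988 higher. The fewest calls, 4707, came without 3D replicate 1, and 2184 were higher without 3D replicate 2. The number higher was 7 to 11 for the NF-kB list, 2 to 5 for glucocorticoid genes and 3 to 8 for haem and iron partners, and the number lower was 0 to 1 for other positive acute phase proteins, 1 to 2 for transcription factors, 1 to 3 for glucocorticoid genes and 0 to 0 for haem and iron partners and for neighbours. The cause was not tested. Of 76 other genes followed, 14 lost and 6 gained a call under some alternative, and none that was called changed direction. Depth is unknown, so values near 0 cannot be told from absence.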
